A study of Mus musculus with 5 samples.

Results

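Condensin is the ring-shaped protein complex that folds chromatin into compact rod-like chromosomes at mitosis. Its 8 subunit genes were examined here among 19938 genes measured in 6DT1 cells, a highly metastatic mouse mammary carcinoma line. The subunits were taken by name: *Smc2* and *Smc4* of the shared core, *Ncapd2*, *Ncapg* and *Ncaph* of condensin I, and *Ncapd3*, *Ncapg2* and *Ncaph2* of condensin II. All 8 were on the array, each with 1 probe set.

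SMC2 and SMC4 are ATPases that pair into a V-shaped dimer, whose open end is closed by a kleisin, CAP-H in condensin I and CAP-H2 in condensin II. The kleisin carries a pair of HEAT-repeat proteins, CAP-D2 and CAP-G in condensin I or CAP-D3 and CAP-G2 in condensin II. Both complexes extrude loops of DNA. Condensin II resides in the nucleus and starts to act in prophase, whereas condensin I reaches the chromosomes after the nuclear envelope has broken down. Several of the subunit mRNAs are known to be made mainly in cells that are replicating DNA or approaching mitosis.

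The study compared a knockdown cohort with a control cohort on 5 Affymetrix Mouse Gene 1.0 ST arrays, 1 per line. Knockdown lines H3 and H4 each carried a lentiviral pLKO.1 short hairpin against *Arid4b*, a subunit gene of the mSIN3A histone deacetylase complex (n = 2 lines). The control cohort consisted of line H5, whose *Arid4b* hairpin left the protein at a normal level, the line with a scrambled hairpin in the same vector, and untransduced 6DT1 cells (n = 3 lines). All but the untransduced cells had been selected with puromycin, and every stable line was a pool of clones, so that hairpin, transduction and selection histories differed between lines of the same cohort. The labels state no genotype beyond the cell line.

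Values are log2 expression after the RMA normalization of the authors, so that a difference of 1 is a doubling of the array signal. *Arid4b* itself measured 6.88 (H3) and 7.35 (H4) under knockdown and 8.24 (H5), 8.34 (scrambled) and 8.36 (untransduced) in the controls, so that both lines labelled as knockdown lay below every control line. By the densitometry in the labels, ARID4B protein was 0.19 of the scrambled level in H3 and 0.15 of it in H4. The array value was thus lower in H3, and the protein level lower in H4. The H3 array stood apart from the others: its median over all probe sets was 6.35 against 6.24 to 6.25, and its SD was 2.25 against 2.29 to 2.30. Of the epithelial markers, *Krt8* (11.81 to 12.26) and *Krt18* (11.57 to 11.71) were far above the array medians in every line. *Krt19* (7.26 to 8.35), *Cldn3* (7.21 to 7.73) and *Cldn4* (6.55 to 6.87) were above them too, whereas *Epcam* (5.61 to 5.75), *Cdh1* (6.05 to 6.16) and *Esrp1* (5.12 to 5.18) lay below them. Defining leukocyte genes such as *Ptprc* (4.98 to 5.15) and *Cd3e* (6.16 to 6.48) were near or below the array medians. Of the fibroblast and endothelial markers, *Col1a1* (7.34 to 7.79), *Pdgfra* (6.88 to 7.36) and *Col3a1* (6.81 to 6.98) were above the medians in every line. The others were near or below them.

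All 8 condensin genes were lower in the knockdown cohort. In H3 and in H4 each of them lay below its level in every control line, and H4 was the lower of the knockdown lines for all 8. Over all genes the first held for 13.5%, and both together for 6.72%. With a call defined as an unadjusted p under 0.05 from limma, a linear model fitted over all genes, 8 of 8 subunits were lower and 0 were higher, where 7.61% of all genes were called lower and 4.34% higher. The median log2 fold change of the 8 was -0.82, beside 0.033 for all genes. After Benjamini-Hochberg adjustment over all genes, 0 of the 8 and 0% of all genes passed (limma, adjusted p from 0.275 to 0.382 for the subunits), while an unmoderated linear model called 3 of the 8 and 4.19% of all genes lower at the unadjusted threshold. After adjustment it called 3 genes, none of them a subunit.

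**Figure D1:**
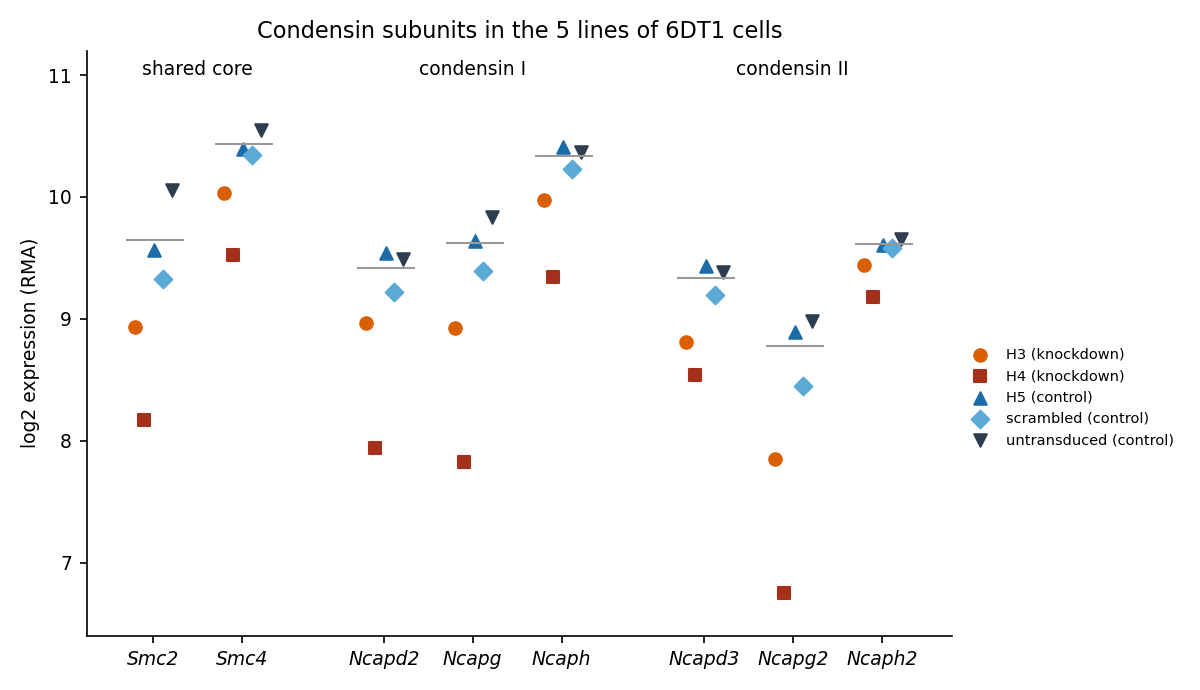
Log2 expression (vertical axis, RMA values) of the 8 condensin genes for the 5 lines (a point is one line, hence one array), and a grey bar at the mean of the 3 control lines. H3 and H4 lie below all control lines for every gene, with H4 lowest, for *Ncapg2* at 7.85 and 6.75.

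Proximal promoter sequences of the subunits were examined because the genes were lower together. The RefSeq table for GRCm38.p6 held windows from 250 bases before to 50 bases after the start for 7 of the 8 genes (8 windows, 2 of them for *Ncapd3*), but none for *Smc4*. The letters searched, on both strands, were TTTGAA and TTCGAA, forms of the cell cycle genes homology region that is bound by the MuvB complex, CCAAT, the core of the NF-Y site, and the E2F-type sites TTTCCCGC, TTTGGCGC, TTTCGCGC and TTTGCCGC. TTCGAA reads the same on both strands, and no match overlapped another. The stretches that end 1 base before the start are shown 5′ to 3′ on the strand of the gene for the 2 genes with the largest fold changes, for *Ncapd2* and *Smc2*, which also hold CCAAT in these stretches, and for *Ncaph2*, with the smallest. Capitals mark the matches.

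*Ncapg2* (chr12:116405316-116405435, plus strand): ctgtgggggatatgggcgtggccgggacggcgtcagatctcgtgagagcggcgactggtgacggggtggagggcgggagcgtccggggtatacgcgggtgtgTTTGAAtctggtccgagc
*Ncapg* (chr5:45669805-45669924, plus strand): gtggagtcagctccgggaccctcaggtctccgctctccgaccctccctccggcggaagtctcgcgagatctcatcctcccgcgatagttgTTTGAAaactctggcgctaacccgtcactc
*Ncapd2* (chr6:125191587-125191736, minus strand): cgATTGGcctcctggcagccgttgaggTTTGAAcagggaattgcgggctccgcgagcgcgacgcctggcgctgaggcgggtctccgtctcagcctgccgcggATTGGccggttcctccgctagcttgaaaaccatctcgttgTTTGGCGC
*Smc2* (chr4:52439071-52439220, plus strand): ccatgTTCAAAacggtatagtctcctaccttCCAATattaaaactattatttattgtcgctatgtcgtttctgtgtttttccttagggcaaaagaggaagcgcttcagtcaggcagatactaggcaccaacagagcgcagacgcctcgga
*Ncaph2* (chr15:89355599-89355718, plus strand): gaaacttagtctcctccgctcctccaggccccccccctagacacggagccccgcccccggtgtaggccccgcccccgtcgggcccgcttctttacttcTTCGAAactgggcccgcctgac

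In these sequences TTTGAA begins 18 bases before the start in *Ncapg2* and 30 bases before it in *Ncapg*, the genes with the 2 largest fold changes. TTCGAA begins 22 bases before the start in *Ncaph2*, the gene with the smallest one. Whether such letters go with the size of the difference was not tested. TTTGAA or TTCGAA was present in 6 of the 8 condensin windows, beside 19.2% of all 32851 promoter windows. Within the 50 bases before the start, a span set after the matches had been seen, 3 of 8 windows held one, beside 2.77% of all. CCAAT was in 3 condensin windows (*Smc2*, *Ncapg* and *Ncapd2*) and in 37.4% of all windows. An E2F-type site was in 3 condensin windows (*Ncapg*, *Ncapg2* and *Ncapd2*) and in 2.26% of all windows. In *Ncapg* it began at base 32 after the start. In *Ncapg2* such sites began 249 bases before the start and at base 1 after it. Within the 50 bases before the start only *Ncapd2* held one, beside 0.39% of all windows. The window of *Ncaph* and 1 of the 2 windows of *Ncapd3* held none of these letters. A match describes the sequence only, and binding was not measured.

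The core subunits are described first. *Smc2* encodes the ATPase found in both complexes and measured 8.93 (H3) and 8.17 (H4) under knockdown and 9.57 (H5), 9.32 (scrambled) and 10.05 (untransduced) in the controls. Its control lines spread over 0.73, more than for any other subunit, and the untransduced cells stood above both selected control lines. The log2 fold change was -1.10 (standard error 0.32, 95% interval -1.95 to -0.24, adjusted p = 0.351 from limma). Its partner *Smc4* measured 10.03 (H3) and 9.52 (H4) under knockdown and 10.40 (H5), 10.35 (scrambled) and 10.55 (untransduced) in the controls. For *Smc4* the control lines lay closer together, and the log2 fold change was -0.66 (standard error 0.17, 95% interval -1.11 to -0.21, adjusted p = 0.323 from limma).

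In condensin I, *Ncapg*, which encodes a HEAT-repeat subunit, differed most between the cohorts. Its levels were 8.93 (H3) and 7.82 (H4) under knockdown and 9.63 (H5), 9.39 (scrambled) and 9.84 (untransduced) in the controls. The log2 fold change was -1.25 (standard error 0.36, 95% interval -2.20 to -0.29, adjusted p = 0.346 from limma), and the H4 minus H3 difference was -1.10. *Ncapd2*, the other HEAT-repeat subunit gene, measured 8.96 (H3) and 7.94 (H4) under knockdown and 9.54 (H5), 9.22 (scrambled) and 9.49 (untransduced) in the controls. The difference from the scrambled control was thus only -0.26 in H3 but -1.28 in H4, and the log2 fold change was -0.97 (standard error 0.33, 95% interval -1.84 to -0.10, adjusted p = 0.382 from limma). *Ncaph*, which encodes the kleisin of condensin I, measured 9.97 (H3) and 9.34 (H4) under knockdown and 10.41 (H5), 10.23 (scrambled) and 10.37 (untransduced) in the controls. Its log2 fold change was -0.68 (standard error 0.20, 95% interval -1.21 to -0.14, adjusted p = 0.352 from limma).

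Condensin II held both the largest and the smallest difference among the 8 genes. *Ncapg2*, its HEAT-repeat counterpart of *Ncapg*, measured 7.85 (H3) and 6.75 (H4) under knockdown and 8.89 (H5), 8.45 (scrambled) and 8.98 (untransduced) in the controls. The log2 fold change was -1.47, or 2.78-fold lower (standard error 0.38, 95% interval -2.47 to -0.48, adjusted p = 0.317 from limma). *Ncapg2* was listed by the study for its size of change on these same arrays, so that its rank here is no independent evidence. *Ncapd3*, the other HEAT-repeat subunit gene, measured 8.81 (H3) and 8.54 (H4) under knockdown and 9.43 (H5), 9.19 (scrambled) and 9.39 (untransduced) in the controls. For *Ncapd3* the knockdown lines were near each other, 0.27 apart, which was less than the 0.38 between H3 and the lowest control line. Its log2 fold change was -0.66 (standard error 0.12, 95% interval -0.98 to -0.35, adjusted p = 0.275 from limma). *Ncaph2*, the kleisin gene of condensin II, measured 9.44 (H3) and 9.18 (H4) under knockdown and 9.61 (H5), 9.58 (scrambled) and 9.66 (untransduced) in the controls. The groups did not overlap, but the log2 fold change was only -0.31, or 1.24-fold lower (standard error 0.09, 95% interval -0.54 to -0.07, adjusted p = 0.349 from limma).

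**Figure D2:**
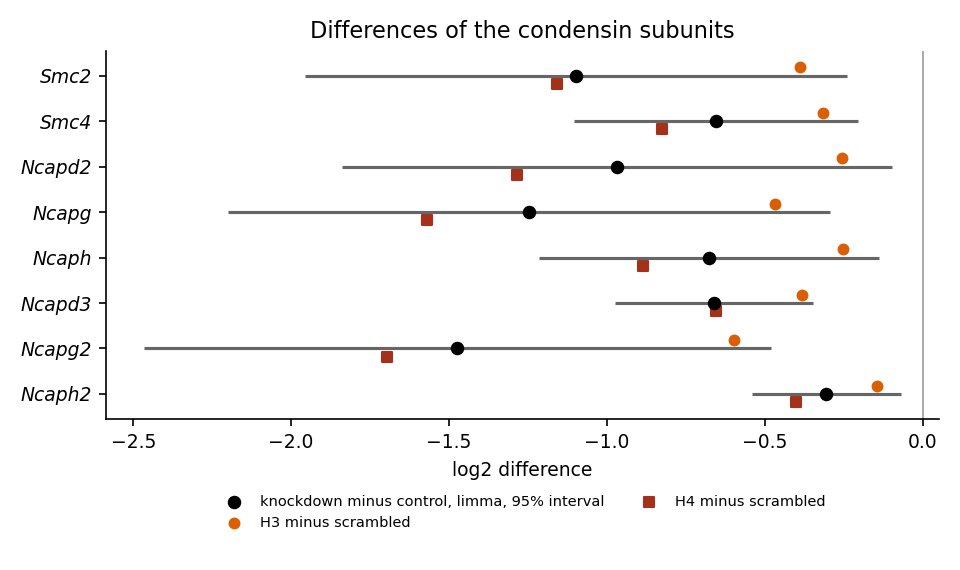
Log2 differences (horizontal axis) of the 8 condensin genes: black points and bars are the knockdown minus control log2 fold change from limma with its 95% interval, and coloured points are H3 and H4 minus the scrambled control, without an interval. Every point lies below 0, from -1.70 (*Ncapg2* in H4) to -0.15 (*Ncaph2* in H3), and H4 is to the left of H3 for each gene.

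The number of calls changed when single lines were left out. The median log2 fold change of the 8 was -0.82 on all arrays. It was -0.79 without H5, -0.90 without the scrambled line and -0.78 without untransduced cells. Larger shifts came with the knockdown lines, to -1.24 without H3 and -0.49 without H4. Each such fit has fewer arrays, so a lost call need not mean a smaller difference. Of the 8 genes, 8 were called lower without H3, 4 without H4 and 3 when H5 was dropped. Dropping the scrambled line left 6, and dropping untransduced cells 2. These were fits that called 9.06%, 9.96%, 3.89%, 8% and 5.07% of all genes lower, in that order. *Ncapd3* was called lower in the fit on all arrays and in each of the 13 alternative settings, *Smc4* and *Ncapg2* missed the threshold in 1 setting each, and *Smc2*, *Ncapd2*, *Ncapg*, *Ncaph* and *Ncaph2* in 3 to 5.

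H4, H3 and the scrambled line stood in the same order for every subunit, though the distances between them differed. Both knockdown lines lay below all control lines for 8 of 8 genes, where this held for 13.5% of all genes, and H4 lay below H3 as well for 8 of 8, against 6.72% of all genes. The H4 minus H3 difference ran from -1.10 (*Ncapg*) to -0.26 (*Ncaph2*). For 7 of the 8 genes this gap between the hairpins exceeded the gap between H3 and the lowest control line, with *Ncapd3* as the exception. Of all 19938 genes, 802 had both knockdown lines below all control lines and such a wider gap between the hairpins. These counts use values without subtraction of array medians. The H3 median was the highest (6.35 against 6.24 to 6.25), so subtraction would narrow the gap between the hairpins and widen the other. The counts were not repeated with medians subtracted. Each hairpin was arrayed once, so the difference between H3 and H4 has no test. Relative to the scrambled line, which like H5 shared vector and selection with them, the differences ran from -0.60 (*Ncapg2*) to -0.15 (*Ncaph2*) in H3 and from -1.70 to -0.40 for the same genes in H4. The scrambled line was itself the lowest control for all 8 subunits, where it was the lowest control for 34.2% of all genes. Untransduced cells were the highest control for *Smc2*, *Smc4*, *Ncapg*, *Ncapg2* and *Ncaph2* and H5 for the others.

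The condensin I and condensin II versions of a subunit were then compared, to ask whether one complex changed more than the other. For each pair the difference of log2 values was formed within each line and set against its mean in the control lines. *Ncaph* relative to *Ncaph2* stood at -0.18 in H3 and -0.56 in H4, and the control lines between -0.08 and 0.08. The mean change was -0.37 (exact permutation test over the 10 ways to set 2 lines against 3, two-sided p = 0.1, adjusted p = 0.267 over 4 pairs). For *Ncapg* relative to *Ncapg2* the change went the other way and was alike in both hairpins, 0.23 in H3 and 0.22 in H4, with the control lines between -0.11 and 0.10 (mean change 0.23, exact permutation p = 0.2, adjusted p = 0.267). *Ncapd2* relative to *Ncapd3* changed by -0.68 in H4 and by 0.07 in H3, so that the hairpins disagreed (mean change -0.31, exact permutation p = 0.4, adjusted p = 0.4). Within the core, *Smc2* changed relative to *Smc4* by -0.31 in H3 and -0.57 in H4, while untransduced cells stood at 0.29 (mean change -0.44, exact permutation p = 0.2, adjusted p = 0.267). With 2 lines against 3 the smallest p this test can give is 0.1. No pair could therefore pass a threshold of 0.05, and the test does not settle whether the complexes differed.

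**Figure D3:**
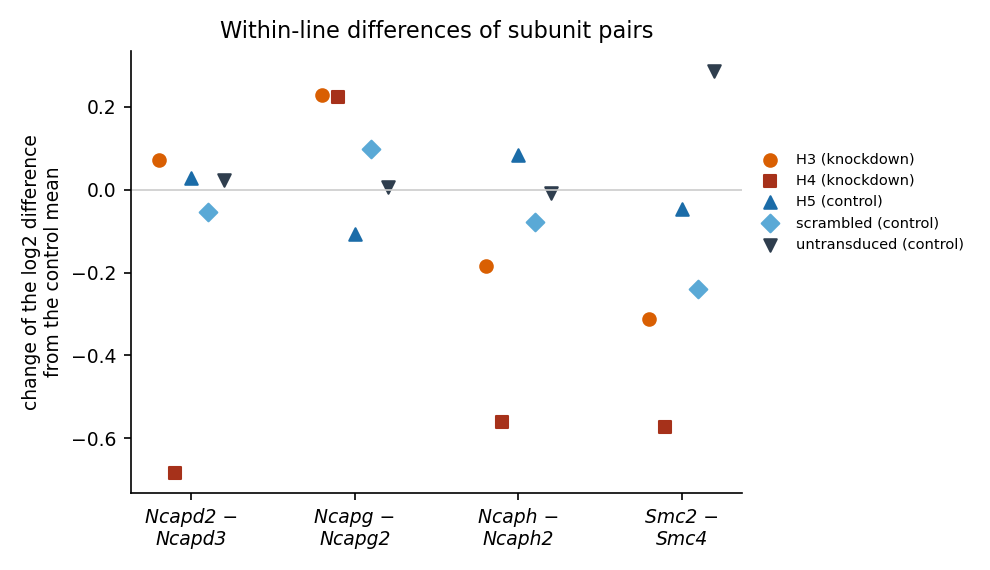
Change of the within-line log2 difference of each subunit pair from its mean in the 3 control lines (vertical axis), with 1 point per line. The *Ncaph* pair is lower in both knockdown lines (-0.18 and -0.56), the *Ncapg* pair is higher in both (0.23 and 0.22), and the *Ncapd2* pair differs between H3 and H4.

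Genes that load, regulate or work beside condensin on mitotic chromosomes were lower as well. Of 20 such genes 18 were analysed, of which 13 were called lower, 0 higher and 5 missed the unadjusted threshold of limma (p under 0.05). The median log2 fold change was -0.91. Over all genes, 7.61% were called lower and 4.34% higher. *Kif4*, a chromokinesin that acts with condensin I in shaping the chromosome axis, measured 7.93 (H3) and 6.93 (H4) under knockdown and 8.96 ± 0.22 (SD, n = 3) on average over the controls (log2 fold change -1.53, standard error 0.33). *Cdca2*, which targets a phosphatase to anaphase chromosomes, had a log2 fold change of -1.17, *Plk1*, a kinase that phosphorylates condensin II, one of -1.01, and *Birc5*, a subunit of the Aurora B complex, one of -0.998. *Mcph1*, whose protein restrains condensin II outside mitosis, was only marginally lower at -0.15 (standard error 0.06, unadjusted p = 0.0478 from limma); it was named after its value had been seen. *Akap8* (-0.29), *Phf8* (-0.20), *Rb1* (0.18), *Csnk2a1* (-0.03) and *Ppp1cc* (-0.15) did not pass. *Kif4* was also listed by the study from these arrays. The count was 10 without the scrambled control, a fit that called 8% of all genes lower. It was 3 (*Kif4*, *Cdca2* and *Mki67*) without H5 (3.89% of all genes), without untransduced cells (5.07%) or with the unmoderated model (4.19%).

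The other complexes built on SMC proteins, cohesin and SMC5/6, showed smaller differences. Of 17 genes, which include the cohesin loader and release factors and *Smchd1*, 9 were called lower, 0 higher and 8 missed the unadjusted threshold of limma (p under 0.05), with a median log2 fold change of -0.26. The shares of all genes were 7.61% lower and 4.34% higher. *Nsmce4a*, a subunit gene of SMC5/6, measured 8.18 (H3) and 7.95 (H4) under knockdown and 8.71 ± 0.15 (SD, n = 3) on average over the controls, and the log2 fold change was -0.64 (standard error 0.12). *Stag1*, a cohesin subunit gene, had -0.51, *Smchd1*, an SMC-related gene with a role in X inactivation, -0.44, and *Smc6* -0.41. *Rad21*, the cohesin kleisin gene (-0.22), *Stag2* (-0.09), *Pds5a* (-0.23) and *Wapl* (-0.10), both regulators of cohesin on DNA, did not pass. H4 lay below H3 for 8 of these 17 genes. It did so for 8 of 8 condensin genes, 13 of the 18 partner genes and 58.9% of all genes. The scrambled line was the lowest control for 13 of these 17 genes and for 16 of the 18 partner genes. Without subtraction of array medians, both knockdown lines lay below all controls with the wider gap between the hairpins for 12 of the 18 partner genes and 0 of these 17. The difference between the condensin genes and the other SMC complexes was not tested. The count of lower genes was 6 without untransduced cells (5.07% of all genes), 5 without H5 (3.89%) and 10 without the scrambled control (8%).

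Markers of cycling cells moved with the condensin genes. All 12 of them, among them *Pcna*, the minichromosome maintenance genes and *Ccna2*, were called lower by limma, beside 7.61% of all genes. The study had already reported *Tpx2*, *Ccnb2* and *Cdc20* as lower on these same arrays, so that their calls are no independent evidence. The log2 fold changes of the 12 ran from -1.17 to -0.66, with a median of -0.85. In H3 their median was -0.48 from the control mean and that of the condensin genes -0.49. In H4 both medians were -1.24. In the scrambled line they were -0.21 and -0.17, in H5 0.04 each, and in untransduced cells 0.17 and 0.09. H4 lay below H3 for 12 of the 12 markers, and the scrambled line was the lowest control for 12 of 12. The gap between the hairpins exceeded the gap between H3 and the lowest control line for 12 of 12 as well, again without subtraction of array medians. *Ncapg2* (-1.47) and *Ncapg* (-1.25) lay below the range of the 12 markers and *Ncaph2* (-0.31) above it. *Smc4* (-0.656) was just above the upper end of that range (-0.660), and the other subunits were inside it. The part of the cycling markers' difference in that of condensin was not tested. In RNA from whole cultures, fewer cycling cells and less condensin mRNA per cell cannot be told apart. Of markers of other cell types, 0 of 8 fibroblast and endothelial genes and 1 of 7 leukocyte genes passed the unadjusted limma threshold, *Csf1r* with a log2 fold change of 0.20. That threshold called 7.61% of all genes lower and 4.34% higher. The summed level of the leukocyte list was 8.23 to 8.32 (log2) in the knockdown lines and 8.16 to 8.18 in the control lines. The summed level of the fibroblast and endothelial list was 9.49 to 9.60 in the knockdown and 9.35 to 9.42 in the control lines. With H4 left out, so that H3 alone stood for the knockdown, 5 of 8 fibroblast and endothelial genes, 5 of 7 leukocyte genes and 4 of 8 epithelial genes were called higher, in a fit that called 24.6% of all genes higher. With H3 left out instead, *Ptprc* (-0.12), *Adgre1* (-0.12), *Kdr* (-0.16) and *Krt8* (-0.37) were called lower and *Csf1r* (0.13) and *Pdgfra* (0.43) higher, where 9.06% of all genes were lower and 6.87% higher. The part of these lists in the condensin differences was not tested. The count of lower cycling markers was 2 without H5 (3.89% of all genes) and 11 without the scrambled control (8%). It was 3 without untransduced cells (5.07%) and 2 with the unmoderated model (4.19%).

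**Figure D4:**
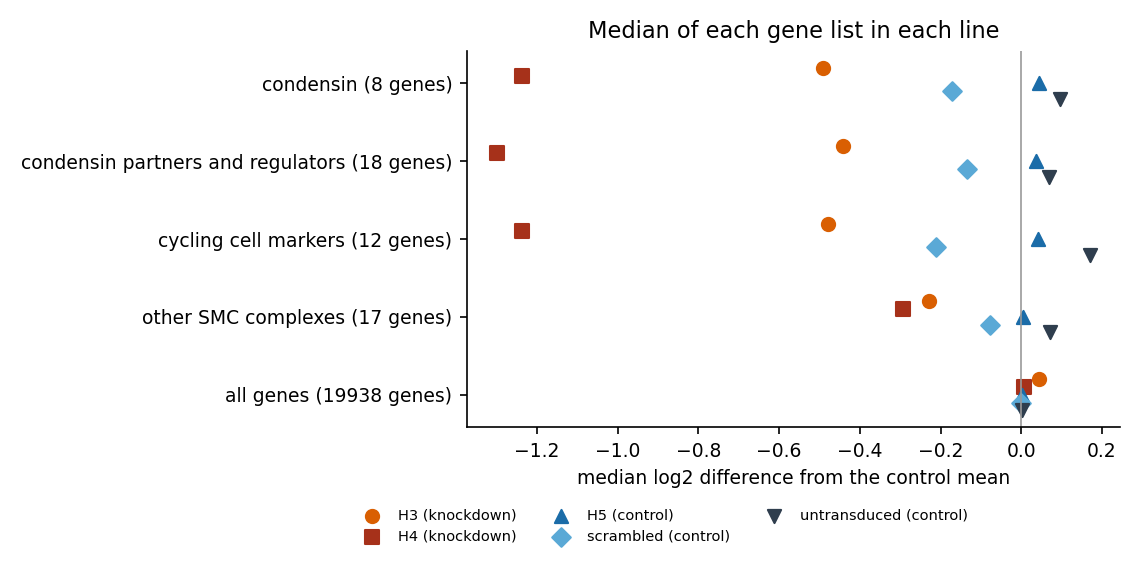
Median log2 difference from the mean of the control lines (horizontal axis) in each of the 5 lines for the condensin genes, their partners and regulators, the cycling cell markers, the other SMC complexes and all genes. The condensin and cycling cell medians nearly coincide in H3 (-0.49 and -0.48) and in H4 (-1.24 each), while the other SMC complexes lie at -0.23 in H3 and -0.29 in H4.

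The genes whose pattern over the 5 lines was most like that of a subunit were found by the root mean square difference of log2 values, after the mean of each gene over the lines had been subtracted. For *Ncapd2* it was *Top2a* (difference 0.044), which encodes the topoisomerase that untangles sister DNA and is itself abundant on mitotic chromosomes. For *Ncapg* it was the mitotic kinase gene *Melk* (0.055), for *Ncapg2* the resolvase gene *Gen1* (0.063), for *Smc2* *Mtbp* (0.077), for *Smc4* *Cks2* (0.033), which encodes a binding partner of cyclin-dependent kinases, and for *Ncaph* the replication fork gene *Tonsl* (0.033). For *Ncapd3* it was *Nsmce4a* of SMC5/6 (0.025) and for *Ncaph2* *Csrp2* (0.021). The match of *Top2a* rests on the brightest of its 2 probe sets. With both averaged, its log2 fold change was -0.52 instead of -0.93. Among the subunits, *Smc4* and *Ncaph* were nearest to each other (0.074), and *Smc4* was also the subunit nearest to *Ncapd3* (0.104). *Ncapg* and *Ncapg2* were nearest to each other (0.128), *Ncapg* was the nearest to *Ncapd2* (0.162) and *Smc2* (0.166), and *Ncapd3* the nearest to *Ncaph2* (0.188). Genes outside the complex were closer in every case. With 19938 genes searched and only 8 subunits among them, an outside gene was likely to be nearest whatever the subunits did. By closeness to a subunit, its nearest fellow subunit ranked 11 for *Ncapg2*, 18 for *Ncaph*, 21 for *Smc4* and 36 for *Ncapg*. The rank was 50 for *Smc2*, 90 for *Ncapd2*, 93 for *Ncapd3* and 7902 for *Ncaph2*. Small values are easier to reach for genes that vary little. These are descriptions over 5 lines that share arrays and normalization.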

How the data were processed

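RNA of 5 lines of 6DT1 cells was measured on single-colour Affymetrix arrays. The deposited values are log2 expression values, which the authors normalized in Partek Genomics Suite; the submitters' processing notes also name RMA, with no version. Of 35556 probe sets, 21789 had 1 gene symbol in the platform annotation, and the gene ID of 21698 of these was found in the RefSeq table of GRCm38.p6, used for current symbols. Each gene is represented by its brightest probe set on average (19938 genes). Cohorts follow the ARID4B level in the labels. The comparison used lmFit and eBayes of limma 3.58.1 (R 4.3.3) over all genes, with Benjamini-Hochberg adjustment, tested on simulated data first; the unadjusted threshold of 0.05 is that of the study. Each line was arrayed once, so that p-values measure the spread between lines, and precision is limited by how few arrays there are. The 8 subunits, the gene lists, the naming rule (all subunits; per list the 4 largest called differences and up to 4 that did not pass, to which *Ppp1cc* was added; the nearest pattern) and the tests were chosen with earlier results of these data known. Alternatives were 8 other settings on all arrays and leaving out each line. A few genes of the lists were not analysed here. Figures were drawn with matplotlib 3.10.9.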

Additional observations from a re-analysis of the deposited data

How the results depend on the processing

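Over the 13 alternatives, 0 of the 104 subunit values passed an adjusted p under 0.05 from limma or the unmoderated linear model (adjusted p from 0.103 to 0.718). On all arrays the 8 stayed called lower with a trend and robust prior, subtracted array medians, the lowest 1 in 3 genes left out, averaged probe sets, array weights and regression on ARID4B densitometry. Each subunit has 1 probe set, so averaging could not change its values. Densitometry was 0.19 in H3, 0.15 in H4 and 1.00 to 1.09 in the controls, so that this regression nearly repeats the cohort comparison. The unmoderated model leaves each fold change as it is but called 3 subunits, losing *Smc2* (-1.10), *Ncapd2* (-0.97), *Ncapg* (-1.25), *Ncaph* (-0.68) and *Ncaph2* (-0.31), and it called 3 partner genes and 2 cycling markers lower. Another quantile normalization lost *Ncaph2* (-0.24) and called 1 gene of the other SMC complexes higher, *Nipbl*. Array weights called 5 of those genes lower. The share of higher genes among all genes called was 36.3%, 20.0% with subtracted medians and 49.4% after quantile normalization; the cause was not tested.

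With single lines left out, log2 fold changes ran from -1.48 to -0.71 for *Smc2*, -0.91 to -0.40 for *Smc4* and -1.48 to -0.46 for *Ncapd2*. They ran from -1.80 to -0.70 for *Ncapg*, -0.99 to -0.36 for *Ncaph* and -0.80 to -0.53 for *Ncapd3*. For *Ncapg2* the range was -2.02 to -0.93 and for *Ncaph2* -0.43 to -0.18. All 8 were highest without H4 and lowest without H3. Calls of lower genes ran from 2 to 8 subunits, 3 to 12 partner genes, 5 to 10 genes of other SMC complexes (0 to 1 higher) and 2 to 12 cycling markers. Fits with a single knockdown line take its variation to equal that among controls. Over all genes, 776 to 1986 were lower and 408 to 4901 higher; the count of 4901 was reached without H4, where H3 was compared alone. The differences between subunit pairs kept their direction after quantile normalization; subtracting array medians or averaging probe sets cannot change them.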
